A study of Arabidopsis thaliana with 11 samples.

Results

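The JAZ (jasmonate ZIM-domain) genes described here are 10 loci, JAZ1, JAZ2, JAZ3, JAZ5, JAZ6, JAZ7, JAZ8, JAZ9, JAZ10 and JAZ12, chosen by gene identifier from a table of 33602 genes. RNA was sequenced from whole Arabidopsis thaliana seedlings of the Columbia ecotype, 11 days old and grown in continuous light, in a study of 3 splicing regulators, the polypyrimidine tract-binding proteins PTB1, PTB2 and PTB3. The 6 genotypes were wild type (WT), MI12 with a miRNA that lowers PTB1 (AT3G01150) and PTB2 (AT5G53180), MI3 with a miRNA that lowers PTB3 (AT1G43190), and OE1, OE2 and OE3, which overexpress PTB1, PTB2 and PTB3. The promoter that drives each transgene is not stated in the labels, and each genotype carries 1 line number in the labels. MI3 had 1 library and each other genotype 2, 11 in all, but the table holds 1 RPKM value per gene and genotype. No spread between plants or libraries can therefore be given, no difference below has a test, and each is a description of these 6 values.

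JAZ proteins repress jasmonate responses. They bind MYC transcription factors and, directly or through the adaptor NINJA, recruit the corepressor TOPLESS. When the hormone jasmonoyl-isoleucine joins a JAZ protein to the F-box receptor COI1, the repressor is ubiquitinated and degraded, the MYC factors are freed, and many JAZ genes are themselves induced, which closes a feedback loop. The ZIM domain holds the TIFY motif and mediates pairing and NINJA binding, and the C-terminal Jas motif holds the short degron that contacts COI1 and the hormone. Retention or altered splicing of an intron inside the Jas region gives truncated JAZ proteins that resist degradation. The values here are totals per gene and do not separate such splice forms.

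The members differ in the degron itself, which is shown here because it is the part that COI1 and the hormone contact. The lines give the 21 bases of coding sequence just before the conserved core of the Jas motif, 5′ to 3′ on the coding strand, read from the RefSeq annotation of TAIR10.1. Capitals mark the codons of the canonical 5-residue degron, where the translated gene holds it.
JAZ1: CTTCCTATTGCTAGAagagct
JAZ2: CTCCCGATTGCAAGAagagct
JAZ10: CTTCCCATCGCAAGGagaaag
JAZ12: CTACCTATTGCAAGGaggcat
JAZ3: ttacctctggctcgcaaagca
JAZ9: gtccctcaagctcggaaagca
JAZ5: gaacgtatagcacgtagagct
JAZ6: gaacgcattgcaagaagagct
JAZ7: caaaaggcctctatgaagaga
JAZ8: ccaaaagcatcaatgaaaaaa
The canonical run was encoded by 4 of the 10 genes, and the TIFY motif by all 10. These stretches lie at chr1:6623110-6623130 (plus strand) in JAZ1, chr1:28149134-28149154 (minus) in JAZ2, chr5:4219937-4219957 (plus) in JAZ10, chr5:7091849-7091869 (plus) in JAZ12, chr3:6122457-6122477 (plus) in JAZ3, chr1:5956088-5956108 (minus) in JAZ5, chr1:27275100-27275120 (minus) in JAZ6, chr2:14573626-14573646 (plus) in JAZ7 and chr1:10597003-10597023 (plus) in JAZ8. In JAZ9 the stretch is joined across an intron, between chr1:26656478 and chr1:26656593 (plus). JAZ8 is known as a stable repressor, and neither it nor JAZ7 encodes the canonical run. The annotation lists 6 protein lengths for JAZ10 and 1 each for JAZ7, JAZ8 and JAZ12.

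In the labelled lines the targeted genes lay on the labelled side of WT: PTB1 was at 26.9% and PTB2 at 44.4% of WT in MI12, PTB3 at 18.2% in MI3, and PTB1, PTB2 and PTB3 at 602.8, 342.8 and 65.4 RPKM in OE1, OE2 and OE3. The OE1 and OE2 columns also differed from WT in the other gene of the pair, with PTB2 at 63.6% of WT in OE1 and PTB1 at 68.7% in OE2. Steps between the low values put the columns at 46.1 mega-reads in MI3 and 79.1 to 95.5 in the other 5. Of the tissue marker lists, 4 genes each, none had a member at 0. The 4 green-tissue genes summed to 6934 RPKM in MI3 and 9502 to 12494 in the other 5 columns, and in MI3 the sum was 64.3% of WT, with LHCB2.1 at 1.03 times WT and the other 3 below it. The 4 root genes summed to 1693 RPKM in MI3 and 452 to 806 in the other 5, with BGLU23 and BGLU21 at 2.53 and 2.90 times WT in MI3 and CASP1 and SCR at 1.09 and 1.18 times. The 4 flower genes summed to 2.09 to 3.74 RPKM, most of it SEP3. The 4 seed genes summed to 4.71 RPKM in WT, 1.67 in MI3 and 12.6 to 39.9 in the other 4 lines, highest in MI12. All 4 seed genes were above WT in each of MI12, OE1, OE2 and OE3. In these whole seedlings fewer cells of a type and less RNA per cell cannot be told apart.

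Before levels are compared between genes, their length scale matters. In genes with introns, low values came out as whole reads for 56.0% to 61.8% of values when length was the whole gene span. With the exon length it was 16.0% to 18.4%, where 20% would by chance. Both used the depth fitted to gene span. With a depth fitted to each length, over genes with and without introns, the shares were 59.8% to 63.0% and 34.9% to 38.2%. The deposited RPKM values were therefore read as reads per kilobase of gene span, introns included, and were also rescaled to exon length. The rescaling multiplies JAZ12 by 1.70, JAZ9 by 1.52 and JAZ10 by 1.03. Comparisons of 1 gene between genotypes do not depend on it.

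The JAZ transcripts fell into an abundant and a scarce set. In WT, JAZ6 was highest at 54.8 RPKM per kilobase of gene span, followed by JAZ9 at 33.8, JAZ12 at 29.4, JAZ1 at 28.1 and JAZ2 at 17.9. The other 5 were at 6.31 (JAZ3), 4.04 (JAZ10), 3.16 (JAZ7), 2.89 (JAZ5) and 0.603 (JAZ8). JAZ12 and JAZ1 had overlapping 95% exact counting intervals, 28.6 to 30.3 and 27.3 to 28.9, and so did JAZ7 and JAZ5. Per kilobase of exon the order in WT was the same, from 66.9 for JAZ6, 51.4 for JAZ9 and 50.0 for JAZ12 to 0.741 for JAZ8. The 5 abundant genes made up 87.2% (MI3) to 92.4% (OE1) of the summed RPKM of the family in each column. Counting intervals cover counting error in the recovered reads and no difference between plants.

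**Figure D1:**
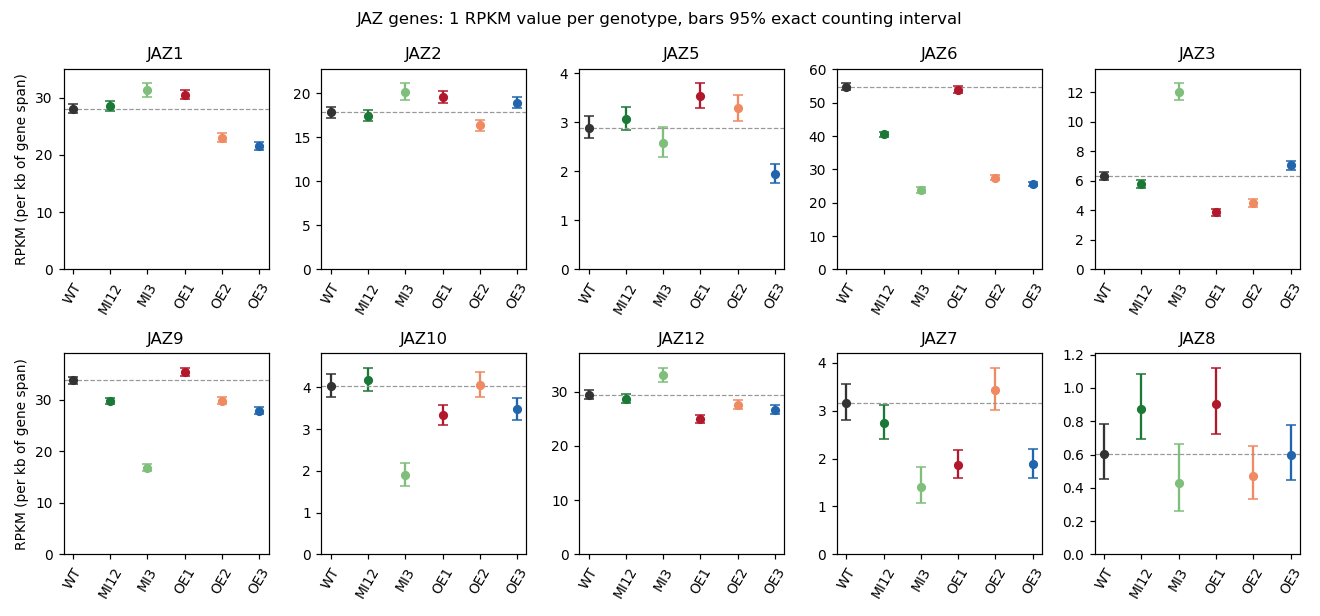
RPKM per kilobase of gene span (y axis, linear from 0) of each of the 10 JAZ genes in the 6 genotypes (x axis), 1 value per genotype. Bars are 95% exact Poisson counting intervals and the dashed line is the WT level; JAZ6 is high in WT and OE1 alone, JAZ3 is highest and JAZ9 and JAZ10 lowest in MI3.

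Among JAZ1, JAZ2, JAZ5 and JAZ6, which group together by protein sequence, JAZ6 varied most. JAZ6 (AT1G72450, TAIR10.1 chromosome 1, 27273968 to 27276562, minus strand) stood at 54.8 RPKM in WT, 54.0 in OE1, 27.6 in OE2, 25.6 in OE3, 40.5 in MI12 and 23.7 in MI3. WT and OE1 were high and did not differ beyond counting error, MI12 lay between, and OE2, OE3 and MI3 were low, each step apart beyond counting error. The ratio to WT was 0.432 in MI3 (counting interval 0.415 to 0.450), 0.467 in OE3 (0.453 to 0.481), 0.502 in OE2 (0.487 to 0.518), 0.739 in MI12 (0.720 to 0.759) and 0.984 in OE1 (0.960 to 1.01). The columns with lowered and with raised PTB3 thus stood on the same side of WT for this gene, and the OE1 and OE2 columns apart.

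On the log2(RPKM + 1) scale, JAZ6 differed from WT by -1.18 in MI3, -1.07 in OE3, -0.97 in OE2, -0.43 in MI12 and -0.02 in OE1. A gene counted as 2-fold apart when this difference was at least 1. In OE2 and OE3 the JAZ6 value lay below the 1st percentile of all compared genes, which was -0.67 and -0.81, whereas in MI3 it lay above that percentile. Set against the other 4 lines' median instead of WT, JAZ6 differed by only -0.48 in MI3 and -0.37 in OE3, and the JAZ6 call was lost there. Of those 4 lines 2 were low for JAZ6 themselves, whereas OE1 stood at the WT level.

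JAZ1 (AT1G19180, chromosome 1, 6621777 to 6623668), a MYC2-binding repressor with the canonical degron, was at 28.1 RPKM in WT, 30.5 in OE1, 23.0 in OE2, 21.6 in OE3, 28.5 in MI12 and 31.3 in MI3. OE2 and OE3 were the low columns, with ratios to WT of 0.820 (0.784 to 0.856) and 0.769 (0.737 to 0.803). JAZ2 (AT1G74950, chromosome 1, 28148574 to 28150446), its closest relative, was the steadiest member, at 17.9 RPKM in WT, 19.6 in OE1, 16.4 in OE2, 18.9 in OE3, 17.4 in MI12 and 20.2 in MI3. Its highest column was 1.23 times its lowest, and WT and MI12 did not differ beyond counting error. JAZ5 (AT1G17380, chromosome 1, 5955155 to 5957511), the closest relative of JAZ6, was at 2.89 RPKM in WT, 3.53 in OE1, 3.28 in OE2, 1.95 in OE3, 3.07 in MI12 and 2.58 in MI3. OE3 stood below the other 5, at a ratio to WT of 0.674 (0.593 to 0.764), and among those 5 no neighbours in the order differed beyond counting error. Columns further apart did: the ratio to WT was 1.22 in OE1 (1.10 to 1.36) and 1.14 in OE2 (1.02 to 1.27).

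JAZ3 and JAZ9, which form another sequence pair and encode variant degrons, stood on opposite sides of WT in MI3. JAZ3 (AT3G17860, chromosome 3, 6119707 to 6123044), through whose dominant truncated form the family was linked to jasmonate insensitivity, was at 6.31 RPKM in WT, 3.86 in OE1, 4.47 in OE2, 7.05 in OE3, 5.77 in MI12 and 12.02 in MI3. MI3 was the high column and OE1 and OE2 the low ones, and every neighbouring pair in the order differed beyond counting error. The ratio to WT was 1.90 in MI3 (1.78 to 2.03), 1.12 in OE3 (1.05 to 1.19), 0.914 in MI12 (0.857 to 0.975), 0.708 in OE2 (0.658 to 0.762) and 0.611 in OE1 (0.568 to 0.657). This was the widest range in the family, 1.42 on the log2(RPKM + 1) scale. The median range was 0.84 for the 9 compared members and 0.41 for the 19669 compared genes. A range of at least 1 was reached by 3 of the 9 members and by 11.9% of all compared genes.

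JAZ9 (AT1G70700, chromosome 1, 26654529 to 26657350), also a MYC-binding repressor, was at 33.8 RPKM in WT, 35.4 in OE1, 29.8 in OE2, 27.9 in OE3, 29.8 in MI12 and 16.8 in MI3. MI3 was the low column, at a ratio to WT of 0.498 (0.475 to 0.522), and OE2 and MI12 did not differ beyond counting error. The JAZ9 level was 5.35 times the JAZ3 level in WT, 9.18 times in OE1 and 1.40 times in MI3, per kilobase of gene span. With the pseudocount of 1 RPKM, the differences in MI3 were 0.83 for JAZ3 and -0.96 for JAZ9, both short of 2-fold. JAZ9 passed it after median-of-ratios scaling (-1.03) and JAZ3 against the other 4 lines' median (1.10).

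JAZ10 (AT5G13220, chromosome 5, 4218786 to 4221077), a feedback regulator best known for its splice variants with altered degrons, was at 4.04 RPKM in WT, 3.34 in OE1, 4.07 in OE2, 3.48 in OE3, 4.17 in MI12 and 1.90 in MI3. MI3 was the low column, with a ratio to WT of 0.469 (0.400 to 0.547), and MI12, OE2 and WT did not differ beyond counting error. JAZ12 (AT5G20900, chromosome 5, 7090704 to 7092539), whose protein is known to be stabilised by the ligase KEG, was at 29.4 RPKM in WT, 24.97 in OE1, 27.6 in OE2, 26.7 in OE3, 28.7 in MI12 and 33.0 in MI3. Its highest column was 1.32 times its lowest, with MI3 on top and OE1 at the bottom. JAZ12 overlaps AT5G20910 on the other strand by 28 bases in the annotation, JAZ10 and JAZ12 each overlap a non-coding RNA locus there, and the labels do not state whether reads were counted by strand.

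JAZ7 and JAZ8 were scarce. Both lack the canonical degron, as do the abundant JAZ6 and JAZ9. JAZ7 (AT2G34600, chromosome 2, 14573030 to 14573952), which carries its own corepressor-binding motif and is known from dark-induced senescence, was at 3.16 RPKM in WT, 1.86 in OE1, 3.43 in OE2, 1.88 in OE3, 2.74 in MI12 and 1.41 in MI3. WT, MI12 and OE2 were high and OE1, OE3 and MI3 low, and within each of these sets the neighbours did not differ beyond counting error. OE2 and MI12, not neighbours in the order, were not set against each other. The ratio to WT was 0.445 in MI3 (0.331 to 0.591), from 60 reads, 0.587 in OE1 (0.481 to 0.716) and 0.594 in OE3 (0.485 to 0.727). JAZ8 (AT1G30135, chromosome 1, 10596352 to 10597341) stood at 0.603 RPKM in WT, 0.905 in OE1, 0.471 in OE2, 0.596 in OE3, 0.874 in MI12 and 0.431 in MI3, from 20 to 86 reads. OE1 and MI12 stood above the other 4, with ratios to WT of 1.52 (1.07 to 2.17) and 1.46 (1.03 to 2.099). JAZ8 was below 1 RPKM in all 6 columns and did not pass the filter on low values, so the counts below are over 9 members.

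Counted over the family at 1.5-fold, MI3 held the most differences from WT, whereas at 2-fold MI3 and OE3 held 1 each. In MI3, 1 of the 9 compared members was 2-fold apart from WT (JAZ6, lower), where 4.65% of all compared genes were, in either direction. With a pseudocount of 0.1 RPKM in place of 1 the count was 4 (JAZ6, JAZ7, JAZ9 and JAZ10, all lower), and with median-of-ratios scaling it was 2 (JAZ6 and JAZ9). At 1.5-fold on the reported scale, 5 of 9 were apart in MI3, JAZ3 higher and JAZ6, JAZ7, JAZ9 and JAZ10 lower, where 15.3% of all compared genes were apart. The median difference of the 9 was -0.12 beside 0.05 for all compared genes. MI3 is 1 library of fewer reads, so a difference of that library cannot be told apart from one of the genotype. Beside these values, the root, green-tissue and seed gene sums given above stood apart in the same column, and their part in the result was not tested.

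In OE3, 1 of 9 members was 2-fold apart (JAZ6, lower), where 1.03% of genes were, and JAZ6 was also the only member past 1.5-fold, where 4.51% of genes were. The OE3 median was -0.27 beside 0.04 for all genes, with 7 of 9 members below WT where 41.2% of all genes were. In OE2 no member was 2-fold apart, where 0.442% of genes were, and JAZ6 was the only member past 1.5-fold, where 2.86% were. The OE2 median was -0.12 beside -0.05. In OE1 no member was 2-fold apart (0.91% of genes), JAZ3 was past 1.5-fold (5.24% of genes), and the median was -0.02 beside -0.01. In MI12 no member passed 2-fold (0.503% of genes) or 1.5-fold (2.7% of genes), with a median of -0.04 beside -0.01. These 5 comparisons share the WT column. At these depths the counting interval of the ratio to WT left out 1 for 9 of the 10 members in OE1 (67.2% of genes), 7 in OE2 (62.4%), 9 in OE3 (64.9%), 4 in MI12 (63.4%) and 8 in MI3 (73.4%), so that leaving out 1 is common in this table.

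**Figure D2:**
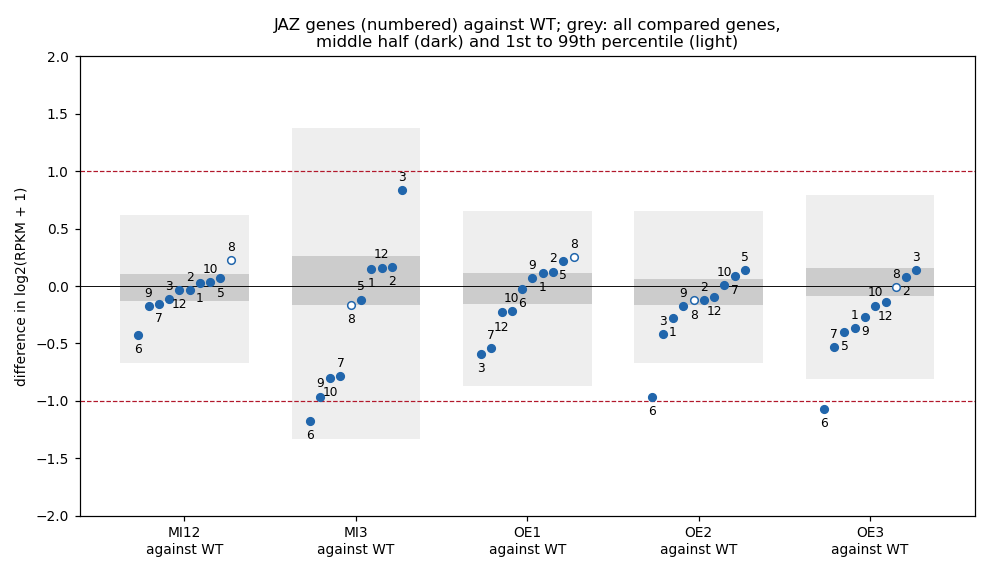
Difference from WT on the log2(RPKM + 1) scale (y axis) of each JAZ gene, given by its number, in the 5 lines (x axis); the open circle is JAZ8, which did not pass the filter on low values, and dashed lines mark 2-fold. Grey bars show all 19669 compared genes; JAZ6 lies at or near the lower dashed line in MI3, OE2 and OE3.

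Lowered and raised PTB3 were also set side by side directly. In MI3 against OE3, no member was 2-fold apart, where 1.91% of genes were, and 3 of 9 were past 1.5-fold, where 7.73% were: JAZ3 was higher in MI3 (12.02 against 7.05 RPKM, ratio 1.70, 1.60 to 1.82), and JAZ9 (16.8 against 27.9, ratio 0.604, 0.575 to 0.633) and JAZ10 (1.90 against 3.48, ratio 0.544, 0.463 to 0.638) were lower. The counting interval left out 1 for 8 of 10 members, as for 63.2% of genes. JAZ6, low in both columns, had a ratio of 0.926 (0.885 to 0.969). When MI12 was set against the OE1 and OE2 mean, no member passed 2-fold (0.773% of genes) or 1.5-fold (4.78% of genes). JAZ3 was nearest, with a log2 difference of 0.39, and JAZ6, for which OE1 and OE2 differ from each other, was at 0.07.

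The summed JAZ level was lower in the 3 columns where JAZ6 was low, though not in the order of JAZ6. Per kilobase of gene span the 10 genes summed to 181 RPKM in WT, 178 in OE1, 161.6 in MI12, 143 in MI3, 140.0 in OE2 and 136 in OE3. Without JAZ6 the sums were 126 in WT, 124 in OE1, 121 in MI12, 120 in MI3, 112 in OE2 and 110.04 in OE3, or 87.2% (OE3) to 98.3% (OE1) of WT. JAZ6 made up 30.3% of the sum in WT and 16.5% in MI3. In MI3 the most abundant members were JAZ12 at 33.0 RPKM and JAZ1 at 31.3, ahead of JAZ6 at 23.7, and per kilobase of exon they were at 56.1, 32.8 and 28.9. JAZ6 was 1.86 times JAZ12 in WT, 2.16 times in OE1, 1.41 times in MI12 and 0.718 times in MI3.

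**Figure D3:**
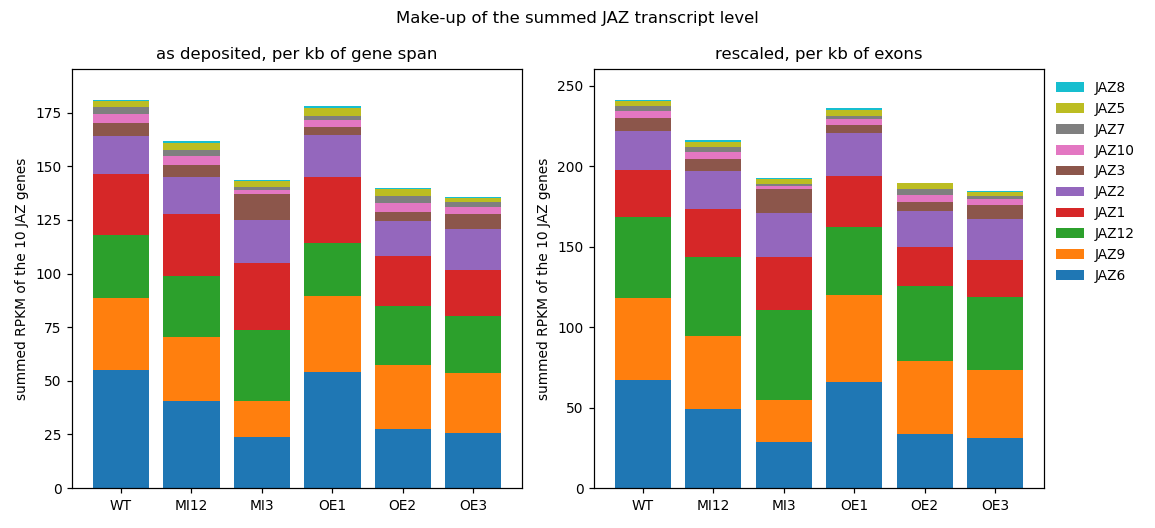
Summed RPKM of the 10 JAZ genes (y axis) in each genotype (x axis), stacked by gene, per kilobase of gene span as deposited (left) and rescaled per kilobase of exon (right). The JAZ6 segment shrinks from 54.8 RPKM in WT to 23.7 in MI3, while the sum of the other members stays between 110.04 and 126 RPKM.

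Promoters are shown for JAZ3, JAZ6 and JAZ9, whose totals varied most on the log2(RPKM + 1) scale. MYC factors bind the G-box CACGTG, so the 250 bases before the annotated start are given 5′ to 3′ on the gene's strand, from TAIR10.1, with each G-box in capitals.
JAZ3, chr3:6119457-6119706, plus strand: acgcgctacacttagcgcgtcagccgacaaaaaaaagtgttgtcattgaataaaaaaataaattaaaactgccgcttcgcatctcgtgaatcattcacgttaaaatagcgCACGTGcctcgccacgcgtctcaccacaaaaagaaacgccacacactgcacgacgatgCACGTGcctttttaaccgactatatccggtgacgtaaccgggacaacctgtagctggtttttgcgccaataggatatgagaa
JAZ6, chr1:27276563-27276812, minus strand: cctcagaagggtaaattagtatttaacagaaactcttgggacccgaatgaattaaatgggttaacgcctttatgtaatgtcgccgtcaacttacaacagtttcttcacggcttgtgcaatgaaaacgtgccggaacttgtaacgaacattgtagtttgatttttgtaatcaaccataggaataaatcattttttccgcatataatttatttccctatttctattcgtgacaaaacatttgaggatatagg
JAZ9, chr1:26654279-26654528, plus strand: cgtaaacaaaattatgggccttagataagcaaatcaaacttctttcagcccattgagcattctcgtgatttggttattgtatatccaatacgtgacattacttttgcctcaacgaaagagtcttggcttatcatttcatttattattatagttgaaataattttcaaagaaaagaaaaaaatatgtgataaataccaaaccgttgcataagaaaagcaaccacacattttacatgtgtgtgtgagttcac
The JAZ3 window held 2 G-boxes, at bases -140 to -135 and -82 to -77 from the start, and the JAZ6 and JAZ9 windows none. Of the 10 members 4 held a G-box in this window, JAZ2, JAZ3, JAZ7 and JAZ8, and so did 7.26% of the 18950 promoters of compared protein-coding genes. These 4 did not share a pattern over the genotypes: in MI3 the ratio to WT was 1.13 for JAZ2, 1.90 for JAZ3, 0.445 for JAZ7 and 0.731 for JAZ8. Other motifs were searched on both strands. The G-box variant CACATG was in the windows of JAZ9 and JAZ10 (11.1% of promoters), the evening element AAAATATCT in that of JAZ10 (2.49%) and the phosphate-response element P1BS, GNATATNC, in that of JAZ9 (5.46%). These are matches of letters and no measure of binding.

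Members also differed in how they varied together. Over the 6 columns, on the log2(RPKM + 1) scale, Pearson's r was -0.95 between JAZ2 and JAZ7, -0.89 between JAZ3 and JAZ9, 0.87 between JAZ9 and JAZ10, 0.84 between JAZ7 and JAZ10, 0.86 between JAZ3 and JAZ12 and 0.58 between the relatives JAZ5 and JAZ6. These are descriptions over 6 points, which share their columns and in which MI3 is often the extreme one.

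Of 10 genes of perception and transcription, none was 2-fold apart in any of the 5 lines, where 0.442% (OE2) to 4.65% (MI3) of all genes were. At 1.5-fold 2 of the 10 were higher in MI3, MYC2 and MYC4, where 8.99% of all genes were higher. The receptor gene COI1 was at 13.0 RPKM in WT, 14.04 in OE1, 13.1 in OE2, 13.2 in OE3, 13.7 in MI12 and 15.9 in MI3. The adaptor gene NINJA ranged from 22.7 in OE2 to 26.3 in OE1. MYC2, the main factor that JAZ proteins repress, was at 18.0 RPKM in WT, stood at 29.4 in MI3 and lay between 16.4 and 19.9 in the other 4 lines. Its relative MYC4, named after its values were seen, was at 13.4 RPKM in WT, 21.8 in MI3 and 12.9 to 14.95 in the other 4 lines.

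Of 13 compared genes of jasmonate synthesis, 1 was 2-fold higher in MI3 and none lower, where 2.58% of all genes were higher and 2.07% lower. The median difference was 0.37 beside 0.05 for all genes. This was the allene oxide cyclase gene AOC1, at 47.8 RPKM in MI3 beside 18.0 in WT, one of 4 close copies whose reads may not have been kept apart. No synthesis gene was 2-fold apart in the other 4 lines on the log2(RPKM + 1) scale. LOX3 in OE3 came to 2.12 RPKM beside 4.91 for WT, a ratio of 0.431, but with the pseudocount its log2 difference was -0.92. At 1.5-fold 4 of the 13 were higher in MI3, LOX2, AOS, AOC1 and AOC4, and none lower, where 8.99% of all genes were higher. In OE3, 2 of the 13 were 1.5-fold lower, LOX3 and LOX4, and none higher, where 2.16% of all genes were lower. Of 9 compared genes of jasmonate turnover, 4 were 2-fold higher and 1 lower in MI3, against those same shares of 2.58% and 2.07%, with a median of 0.98. The hormone hydroxylase genes CYP94B1 (1.27 RPKM in WT, 4.01 in MI3) and CYP94B3 (0.527 and 4.69), the sulfotransferase gene ST2A (15.7 and 53.0) and the jasmonate-regulated gene JRG21 (1.20 and 7.16) were higher. CYP94B3 reached 1 RPKM only in MI3 and OE3. It therefore entered the compared genes only through columns where it was high, and its WT level was too low for a 2-fold lower call. Some were also past 1.5-fold higher in other lines. These were JRG21 in MI12 (2.64 RPKM) and OE2 (2.65), CYP94B3 in OE3 (1.58) and ST2A in OE1 (24.8). Of all compared genes, 1.13% were past 1.5-fold higher in MI12, 1.36% in OE2, 2.35% in OE3 and 1.41% in OE1.

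CYP94C1, which carries hormone oxidation further, was lower in the columns where JAZ6 was low: it was at 8.43 RPKM in WT, 9.63 in OE1, 3.22 in OE2, 1.88 in OE3, 10.03 in MI12 and 1.53 in MI3. WT, MI12 and OE1 were high and the other 3 low. In OE2 the locus AT2G38240 of the same list was 2-fold higher (0.259% of all genes), at 8.36 RPKM beside 1.73 in WT. AT2G38240 was also above WT in MI12 (4.16 RPKM) and MI3 (4.38), with log2 differences of 0.92 and 0.98, just short of 2-fold with the pseudocount. It was at 2.60 RPKM in OE1 and 1.28 in OE3. Of 7 genes downstream of MYC factors, 2 were 2-fold higher in MI3 (2.58% of all genes), the coronatine-induced cystine lyase gene CORI3 (11.6 and 32.9 RPKM) and the NAC factor gene NAC019 (3.86 and 11.3), and 1 lower (2.07%). The latter, the aminotransferase gene TAT3, was at 7.96 RPKM in WT, 3.93 in OE1, 21.4 in OE2, 3.11 in OE3, 22.2 in MI12 and 3.29 in MI3. The vegetative storage protein genes VSP1 and VSP2, whose similar sequences may share reads, were not 2-fold apart in any line on the log2(RPKM + 1) scale. VSP1 in OE3 came to 24.3 RPKM beside 11.8 for WT, a ratio of 2.06, but with the pseudocount its log2 difference was 0.98. VSP2 was at 21.5 in WT and 12.7 in OE2.

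**Figure D4:**
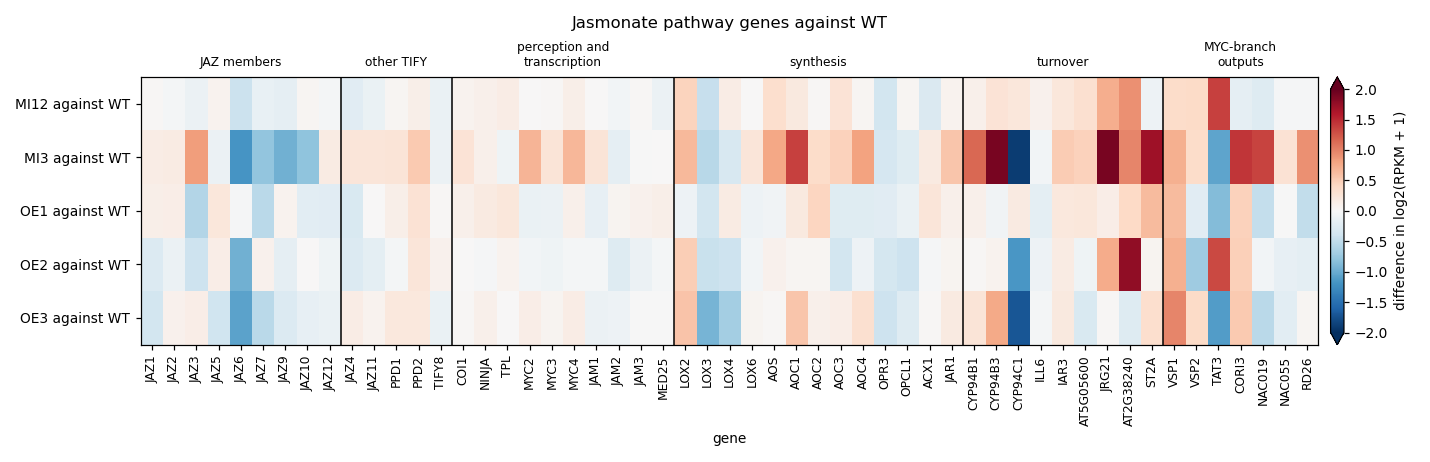
Difference from WT on the log2(RPKM + 1) scale (colour, cut at 2 in either direction) of the compared jasmonate pathway genes (x axis) in the 5 lines (y axis). The perception and transcription block holds no gene past 2-fold, and the MI3 row holds most of the strong colours, in turnover and MYC-branch outputs.

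Because several JAZ genes are known to respond within minutes to touch and wounding, rapid-response genes are given beside them. TCH3, a calmodulin-like touch gene, was at 402 RPKM in WT, 327.5 in OE1, 249.7 in OE2, 182 in OE3, 325.6 in MI12 and 51.5 in MI3. TCH4, a cell-wall enzyme gene, was at 342 RPKM in WT, 169.7 in OE1, 440.4 in OE2, 190.4 in OE3, 230.3 in MI12 and 57.7 in MI3. ERF5, an ethylene response factor gene, was at 4.58 in WT, 10.2 in MI3 and 2.55 (OE2) to 3.76 (OE3) in the other lines. Of 8 compared genes of that list, 2 were 2-fold lower (2.07% of all genes) and 1 higher (2.58%) in MI3, 1 lower in OE3 (0.529%) and 1 lower in OE1 (0.6%). Their part in the JAZ values was not tested.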

How the data were processed

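RNA-seq libraries were made with a TruSeq kit, per the labels' protocols. The authors deposited 1 table of RPKM values, reads per kilobase and per mega-read, with 1 column per genotype. Per the submitters' processing notes, the genome build was TAIR10. The way reads were aligned and counted, by strand or not, with which treatment of multiply mapping ones, and combined over libraries was not given in the sources used here. Genotypes were taken from the labels. A single WT cell without a number was set to 0.

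Comparisons used the log2(RPKM + 1) scale, which understates changes of low genes, over the 19669 genes that reached 1 RPKM in 2 or more of 6 columns. A difference of at least 1 counted as 2-fold. With 1 value per genotype no test was possible, and none was run. Depth was found as the number of mega-reads at which low values came nearest to whole reads (59.8% to 63.0% within 0.1 of a whole read, 20% by chance). The TAIR10.1 annotation from RefSeq gave lengths, so reads per gene are approximate where gene ends differ from the authors' annotation. Intervals are 95% exact (Poisson for levels, Clopper-Pearson for ratios) and cover counting error only, since reads are not independent molecules. Sequences and coordinates are from RefSeq TAIR10.1, and exon length is the union of all annotated exons, which includes introns retained in any annotated transcript. The calls and the depth recovery were run on reads simulated from the WT column with counting noise only, using the same gene spans and WT depth. Such a run checks the code, and cannot check the length scale or the variation between plants and libraries.

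The JAZ members and the gene lists were chosen with earlier results of these data known. The named genes were all 10 members, COI1, NINJA, MYC2, VSP1 and VSP2, list members past 2-fold (at most 6 a list), and the 5 genes nearest in pattern to the median of the members and to the member of widest range; patterns near JAZ6 and JAZ9 were added after their values were seen. LHCB2.1, BGLU23, BGLU21, CASP1, SCR, SEP3 and the PTB genes are checks of tissue and labels. Named outside this choice were MYC4, LOX2, LOX3, LOX4, AOS, AOC4 and the other genes of the TIFY family. Names of listed loci were used where the RefSeq table pairs them with the locus. Tools were scipy 1.17.1, matplotlib 3.10.9, pandas 2.3.3 and numpy 2.4.6 under Python 3.11.15.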

Additional observations from a re-analysis of the deposited data

How the results depend on the processing

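No paired analysis was possible because the table holds 1 value per genotype and no value per library, and for the same reason no replicate could be left out. In MI3 the count of members 2-fold apart from WT was 1 as reported, 4 with a pseudocount of 0.1 (JAZ6, JAZ7, JAZ9 and JAZ10, all lower) and 2 with median-of-ratios scaling (JAZ6 and JAZ9). JAZ9 lay next to the threshold, at -0.96. Against the other 4 lines' median the MI3 count was again 1, but the member was JAZ3 (1.10, higher) and JAZ6 was at -0.48. With that control the OE3 count was 0 in place of 1, with JAZ6 at -0.37, since JAZ6 was low in OE2, OE3 and MI3 alike. The counts in MI12, OE1, OE2, MI3 against OE3 and MI12 against both overexpressors' mean were 0 in every setting run: pseudocounts of 0.1 and 0.5, no filter, a filter of 5 RPKM, median-of-ratios scaling, quantile normalization and, against WT, the other control. Of 442 values of single members under these settings, 8 changed sign, none of them a 2-fold call. Among them was JAZ6 against the other 4 lines' median. It went from -0.02 to 0.996 in OE1, just short of 2-fold, and from -0.43 to 0.59 in MI12. JAZ8, with 20 to 86 reads, and JAZ7 in MI3, with 60, are the values that depth limits most.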

Other observations

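Other genes of the TIFY family, which JAZ genes belong to, held no 2-fold difference: of 5 compared (JAZ4, JAZ11, PPD1, PPD2 and TIFY8) none was 2-fold apart from WT in any line. In OE1, where JAZ6 was at -0.02 from WT, JAZ4 was at -0.31 and PPD2 at 0.30. JAZ4, a relative of JAZ3 and JAZ9, was at 1.59 RPKM in WT, 1.09 in OE1, 1.15 in OE2, 1.87 in OE3, 1.20 in MI12 and 2.06 in MI3. Its high columns were MI3 and OE3, and OE1, OE2 and MI12 were low. The order of columns was that of JAZ3, where MI12 stood nearer to WT than to OE2. No counting interval was taken for JAZ4. JAZ11, the relative of JAZ12, was highest in MI3 as well, at 6.51 RPKM beside 5.34 in WT. The locus AT3G22275 was below 0.5 RPKM in all 6 columns.

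Among 13327 genes of at least 5 RPKM on average, those nearest to the JAZ3 pattern, by the mean absolute distance of the 5 differences from WT, were AT2G36290 (0.050 on the log2 scale), AT4G24130 (0.072), AFP3 (0.074), AT5G10580 (0.074) and AO1 (0.080). AFP3, an ABI5-binding protein gene, was at 9.82 RPKM in WT, 18.5 in MI3 and 6.45 in OE1. The nearest to JAZ6 were DFL2 (0.14), SGT1A (0.14), AT5G19240 (0.17), AT3G50650 (0.18) and AT3G11420 (0.21). DFL2, of the GH3 family, was at 35.5 RPKM in WT, 37.8 in OE1, 18.4 in OE2, 17.6 in OE3, 32.6 in MI12 and 13.6 in MI3. The nearest to JAZ9 were AT1G51110 (0.051), AT2G05765 (0.055), IQD24 (0.060), AT2G31810 (0.065) and CIPK15 (0.068). The nearest to the median of the members, a profile close to WT throughout, were AT5G26960 (0.025), AT1G22850 (0.025), NAC052 (0.037), AT4G22580 (0.038) and the phosphoinositide kinase gene AT2G46500 (0.039).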
